A study of Mus musculus with 16 samples.

Results

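The genes described here are those of the complement system and of the acute phase response, 37 genes taken from a list of names. The platform annotation named at least 1 probe for 35 of the 37 genes, 46 probes of the 46643 on the array. The remaining pair, C3 and C4b, had no probe named here and is not analysed. C5 appears in the annotation as Hc and C1s as C1s1. For 43 of the 46 probes the signal was high enough for testing, and these covered all 35 genes. Each gene is given by its brightest tested probe, and levels are compared between arrays for 1 probe at a time, never between probes.

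Complement is a cascade of plasma proteins that marks and lyses microbes. C1q and the mannose-binding lectins recognise surfaces, the proteases C1r, C1s and the MASPs then cut C4 and C2, factor B serves the alternative pathway, and C5 to C9 build the pore that opens a membrane. Acute phase proteins are plasma proteins whose hepatic output changes in inflammation, among them the pentraxins, the serum amyloid A proteins, haptoglobin, hemopexin and the orosomucoids. Most of these proteins come from hepatocytes, C1q comes mainly from macrophages, and adipocytes are known to express haptoglobin and orosomucoid.

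Female C57BL/6 mice, housed individually, gave RNA of liver, of brown fat (BAT) and of white fat (WAT), which was measured on 16 single-colour Illumina MouseWG-6 arrays. Room temperature animals stayed at 22°C for the whole 72 h, and cold animals spent 48 h at 22°C and then 24 h at 8°C. BAT and WAT had 3 arrays at each temperature and liver had 2. Each array held RNA of 1 mouse. The methods took all these tissues from each animal, so arrays of different labels may come from the same mouse, which the labels do not give. A signal below is the deposited, background-subtracted brightness on a linear scale, and a probe is called detected where its detection score was at least 0.95.

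The arrays labelled WAT carried hepatocyte markers with low adipocyte markers, those labelled liver carried adipocyte markers, at room temperature together with hepatocyte markers, and so both are named by their label and no array was moved. Adiponectin (Adipoq), made by adipocytes, had signals of 12.9 to 65.7 on the 6 arrays labelled WAT and of 8151 to 18483 on the 4 labelled liver. Over 11 adipocyte markers the summed signal was 6422 to 9453 and 50959 to 78777 on the same arrays. Over 12 hepatocyte markers the summed signal was 102956 to 115745 on arrays labelled WAT, 81764 to 109097 on room temperature arrays labelled liver, 6080 to 13302 on cold arrays labelled liver, 4827 to 11892 on room temperature BAT arrays and 952 to 1343 on cold BAT arrays. The albumin probe was at background throughout. On BAT arrays skeletal muscle markers summed to 35516 to 71100. Of the cold arrays, replicate 3 labelled WAT stood apart in pancreas markers and replicate 1 labelled liver in muscle markers. Brown adipocyte markers summed to 3179 on 1 cold array labelled liver and 28134 on the other. Their sums were 1722 to 2467 on room temperature arrays labelled liver and 54966 to 69814 on BAT arrays. Between 11915 and 17399 probes were detected per array.

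**Figure D1:**
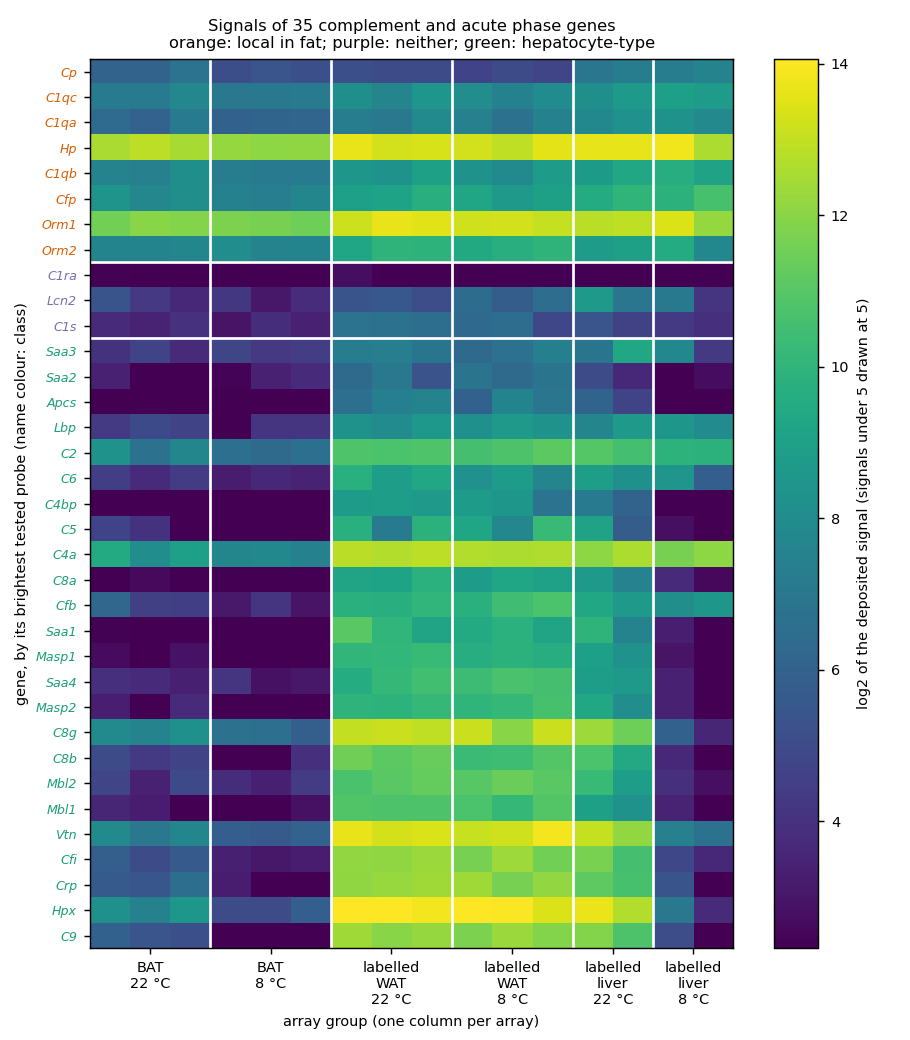
Signals of the 35 genes (rows, brightest probe) on each of the 16 arrays (columns, grouped by label and temperature), coloured by log2 of the deposited signal, with signals under 5 drawn at 5. The 24 genes named in green were detected on all 6 arrays labelled WAT and on both room temperature arrays labelled liver, and 14 of them on all room temperature BAT arrays, whereas the 8 named in orange were detected on every array.

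The genes were first sorted by where they were expressed in fat. A gene was called local in fat where its probe was detected on all 6 BAT arrays and its mean log2 level on the arrays labelled WAT, which carried hepatocyte markers, was less than 2 units above that of BAT. A gene was called hepatocyte-type where it was detected on all 6 arrays labelled WAT with a difference of at least 2 units. This gave 8 genes local in fat (Cp, C1qc, C1qa, Hp, C1qb, Cfp, Orm1 and Orm2), 24 hepatocyte-type genes and 3 in neither class (C1ra, Lcn2 and C1s). The difference ranged from -0.62 for Cp to 1.94 for Orm2 in the first class and from 2.00 for Saa3 to 6.92 for C9 in the second. The genes nearest the threshold were Orm2 at 1.94 below it and Saa3 at 2.00 and Saa2 at 2.03 above it. These differences chose the classes and are given as a description only. No array labelled liver and no temperature contrast entered the rule. The name hepatocyte-type stands for this rule only and does not mean that a gene was limited to arrays with hepatocyte markers. Of the 24 genes, 6 (Lbp, Saa3, C4a, C2, C6 and Cfb) were also detected on both cold arrays labelled liver. Their means there were within 2 log2 units of those of the cold WAT label, though Cfb was 3.85-fold lower. Hepatocyte markers were low on those 2 arrays, as given below.

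**Figure D2:**
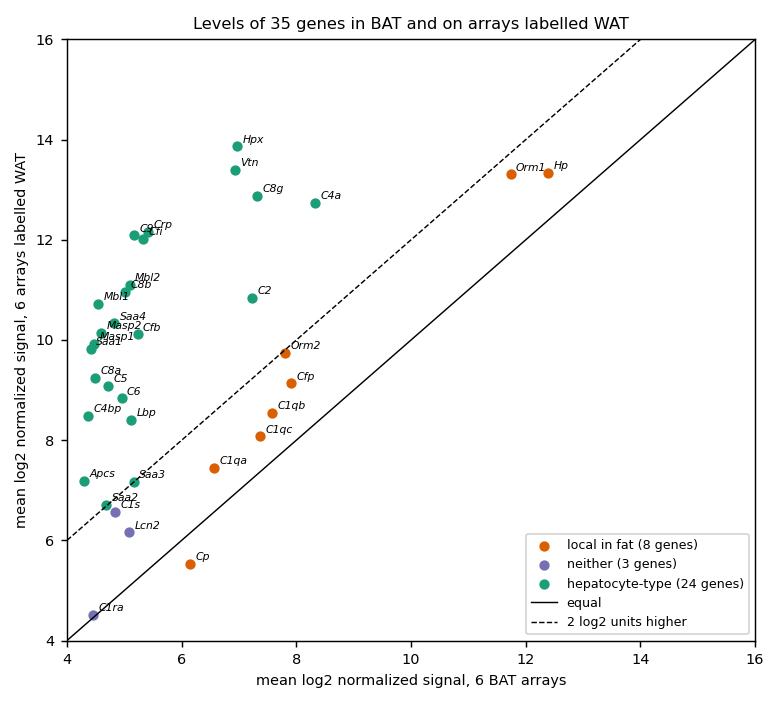
Mean log2 normalized signal of the 35 genes over the 6 BAT arrays (horizontal axis) and over the 6 arrays labelled WAT (vertical axis), coloured by class. The solid line marks equal levels and the dashed line a difference of 2 log2 units, and the genes run from Cp at -0.62 to C9 at 6.92.

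The 3 chains of C1q, which together form the recognition unit of the classical pathway, were detected on every array. C1qa signals were 85.4, 63.6 and 138 on room temperature BAT arrays and 62.5, 69.3 and 72.1 on cold ones. On arrays labelled WAT they were 154, 131 and 244 in room temperature mice, against 172, 103 and 181 in cold ones. On arrays labelled liver they were 223 and 307 in room temperature mice, against 319 and 231 in cold ones. All 4 of these last arrays lay above every BAT array, and the BAT temperatures overlapped. C1qb signals were 191, 175 and 287 on room temperature BAT arrays, 156, 142 and 138.5 on cold BAT arrays, 376, 324 and 504 and then 330, 236 and 431 on arrays labelled WAT, and 419, 665.5, 794.5 and 547 on arrays labelled liver. C1qc signals were 145, 146 and 214 on room temperature BAT arrays, 129, 136 and 139 on cold BAT arrays, 284, 204 and 356 and then 274, 181 and 266 on arrays labelled WAT, and 286, 390.5, 497 and 446 on arrays labelled liver. The cold BAT arrays were below the room temperature ones without overlap for C1qb and C1qc, but neither passed the test (log2 change -0.51 ± 0.26, standard error, adjusted P = 0.648 and -0.27 ± 0.21, adjusted P = 0.852, n = 3 and 3 arrays).

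Properdin (Cfp), a leukocyte protein that stabilises the convertase of the alternative pathway, had the same order of group means. Its signals were 341, 219 and 279 on room temperature BAT arrays, 177, 164 and 208 on cold BAT arrays, 490, 554.5 and 824 and then 610, 390 and 508 on arrays labelled WAT, and 743, 1033, 929 and 1600.2 on arrays labelled liver. In the cold, C1qb, C1qc and Cfp were lower on arrays labelled WAT than on arrays labelled liver (log2 difference -0.99, adjusted P = 0.0277, -0.95, adjusted P = 0.0121 and -1.28, adjusted P = 0.00597). C1qa missed the threshold (-0.81, adjusted P = 0.0961). At room temperature none of these genes was called. The log2 differences there were -0.57 for C1qa, -0.40 for C1qb, -0.27 for C1qc and -0.52 for Cfp (adjusted P of 0.357 to 0.633). The summed signal of 13 macrophage markers ran in the same order, at 776 to 1620 on BAT arrays, 1685 to 3022 on arrays labelled WAT and 2993 to 11341.5 on arrays labelled liver. The sum rests on the brightest markers, and their median log2 level did not keep this order at room temperature. That median was 5.26 to 5.37 on room temperature BAT arrays, 6.53 to 7.51 under the WAT label and 6.62 to 6.65 under the liver label. In the cold it was 4.64 to 4.84, 5.17 to 6.40 and 6.54 to 6.62. Of these 13 markers, 7 were detected on no cold BAT array. Their part in the C1q and Cfp levels was not tested. In whole tissue, fewer cells of a type and less RNA per cell cannot be told apart.

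Haptoglobin (Hp), which binds free hemoglobin, and orosomucoid 1 (Orm1), an acute phase glycoprotein, were detected on all 16 arrays. Hp signals were 6029, 7489 and 5900 on room temperature BAT arrays and 4727, 4258 and 4426.5 on cold ones. On arrays labelled WAT they were 12897.5, 9940 and 10329.5 and then 9838, 7944 and 12431.5 in cold mice, and on arrays labelled liver 12711, 12795, 14552 and 6234. The cold BAT arrays were all below the room temperature ones, a log2 change of -0.52 ± 0.27 that did not pass the test (adjusted P = 0.671). The dimmer Hp probe was also lower without overlap in BAT, with 2140, 2377 and 2344 and then 1741, 1572 and 1784. The 2 Hp probes disagreed on cold array 3 labelled WAT, where the dimmer probe had 1302 against 4447 and 5477 on the other 2 cold arrays and the brighter probe was at its highest of the 3.

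Orm1 signals were 3013.5, 3963 and 3760 on room temperature BAT arrays and 3460.5, 3239 and 2865 on cold ones. They were 9267, 13113 and 11989 and then 9364, 9950 and 8292 on arrays labelled WAT, and 7298, 7798, 11111 and 4789 on arrays labelled liver. Orm1 in BAT thus overlapped between temperatures (log2 change -0.17 ± 0.23, adjusted P = 0.955). Orm2, a nearby copy in the mouse genome, had signals of 195, 195 and 211 on room temperature BAT arrays and 268, 190 and 194 on cold ones. On arrays labelled WAT it had 624, 984 and 975 and then 706, 838 and 991.5 in cold mice, and on arrays labelled liver 440, 509, 739.5 and 224. The 2 cold arrays labelled liver differed widely for these genes, replicate 1 being above every BAT array for Hp, Orm1 and Orm2 and replicate 2 within or near the BAT range. Orosomucoid genes are near-identical copies, so a probe of one may read another.

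Ceruloplasmin (Cp), a copper-carrying ferroxidase, was the exception, because its brighter probe was lower on arrays labelled WAT than in BAT. Its signals were 67.1, 66.7 and 112 on room temperature BAT arrays and 34.9, 42.7 and 36.1 on cold ones. They were 36.3, 33 and 32 and then 25.4, 33.1 and 27.4 on arrays labelled WAT, and 120.5, 151, 160 and 189 on arrays labelled liver. The arrays labelled liver therefore held the 4 highest values, without overlap. Cp was lower on arrays labelled WAT than on arrays labelled liver at room temperature (log2 difference -1.61 ± 0.17, adjusted P = 7.78e-05) and in the cold (-2.11 ± 0.17, adjusted P = 1.94e-06). The second Cp probe had the opposite pattern, with 43.8 to 70.4 on arrays labelled WAT, 8.1 to 10.6 on arrays labelled liver and -0.2 to 13.6 on BAT arrays. Cp is therefore local in fat by 1 probe only.

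**Figure D3:**
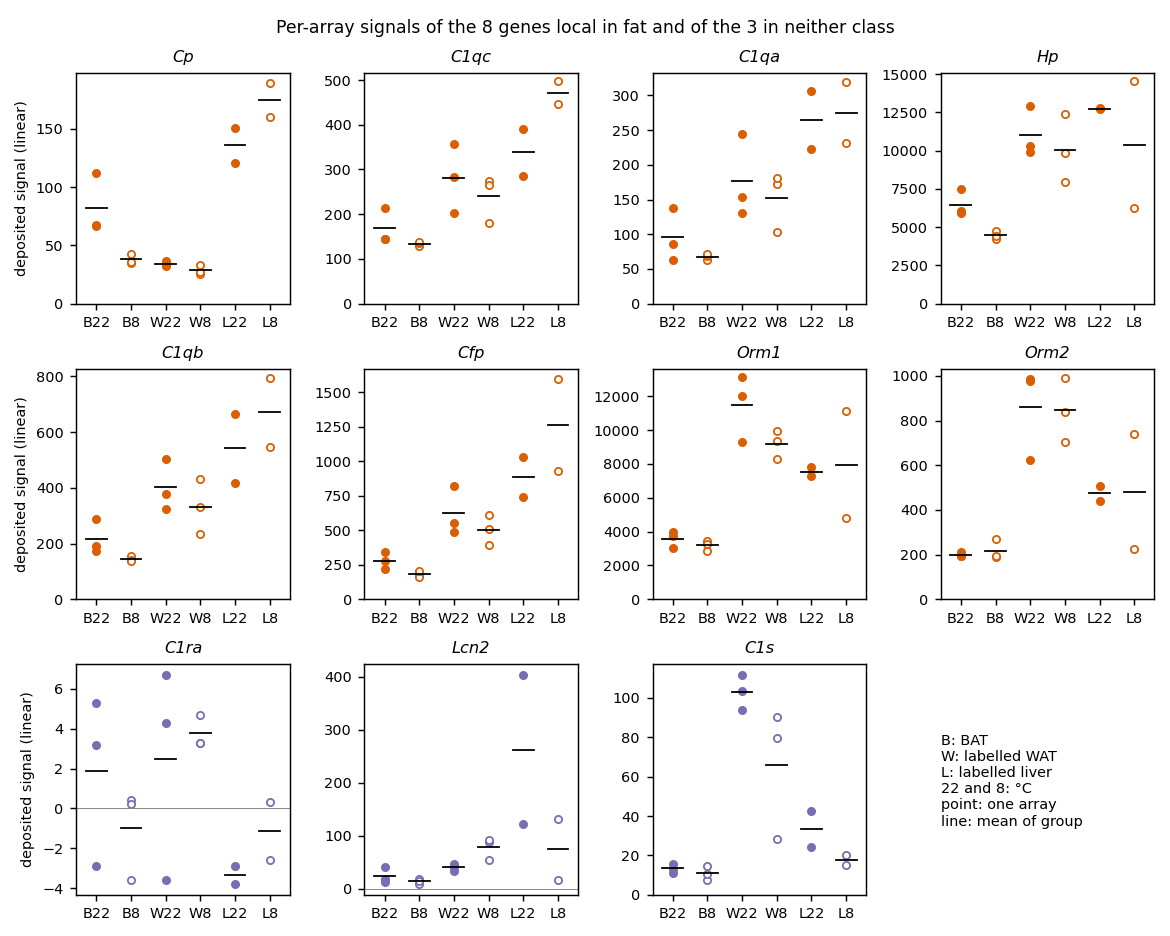
Deposited signals (linear axis, a separate scale in each panel) of the 8 genes local in fat and the 3 genes in neither class, 1 point per array with the group mean as a line, filled for 22°C and open for 8°C (B, BAT; W, labelled WAT; L, labelled liver). The group means of the C1q chains, Cfp and Cp are highest on arrays labelled liver and those of Orm1 and Orm2 on arrays labelled WAT, and Cp falls from 66.7 to 112 at room temperature to 34.9 to 42.7 in cold BAT.

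Of the 3 genes in neither class, C1ra, a protease of the C1 complex, was detected on no array by either of its probes (signals of -9.1 to 6.7), so it has no level here. C1s, its partner protease, had 7.6 to 15.8 on BAT arrays, 28.2 to 112 on arrays labelled WAT and 15.3 to 42.5 on arrays labelled liver. Its other probe stayed at background. Lipocalin 2 (Lcn2), which binds bacterial siderophores, had 8.4 to 40.8 on BAT arrays, 34.2 to 92.1 on arrays labelled WAT and 404, 122, 132.5 and 17.4 on arrays labelled liver. At room temperature, the difference of the WAT label from the liver label was -2.10 ± 0.56 on the log2 scale for Lcn2 (adjusted P = 0.0324) and 1.30 ± 0.29 for C1s (adjusted P = 0.0135).

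The serum amyloid A genes, whose proteins ride on high-density lipoprotein in inflammation, divided within the family although all 4 lie next to each other on mouse chromosome 7 (assembly GRCm38.p6). Saa1 signals were -9.7 to 5.3 on BAT arrays, 582 to 2164 on arrays labelled WAT, 980 and 193 on room temperature arrays labelled liver and 9.8 and -8.8 on cold ones. Saa4 followed the same course, with 7.3 to 17.1, 773 to 1665, 473 and 403, and 10.4 and 3.1. Saa2 had 3.7 to 13.7, 40.3 to 129.5, 32.4 and 12.7, and 3.0 and 6.5. Saa3, which in mice is also known from macrophages and adipocytes, differed from them by being detected on every array. Its signals were 13.3 to 27 on BAT arrays, 83.6 to 166 on arrays labelled WAT, 119 and 631 on room temperature arrays labelled liver and 221 and 20.1 on cold ones. These last 4 signals overlapped between temperatures (log2 change -1.69 ± 0.76, adjusted P = 0.413, n = 2 and 2). Saa1 and Saa2 are near-identical in sequence, so either probe may read both.

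The stretches upstream of these genes show how near the copies are. The 250 bases before the RefSeq start are given for the Saa genes, which share a locus but not a pattern, for Crp, which was lower in the cold in BAT and under the liver label, and for Orm2, which was local in fat. Sequences are from RefSeq (GRCm38.p6), 5′ to 3′ on the strand of the gene, at chr7:46742981-46743230 (minus) for Saa1, chr7:46751583-46751832 (plus) for Saa2, chr7:46715677-46715926 (minus) for Saa3, chr7:46732604-46732853 (minus) for Saa4, chr1:172697806-172698055 (plus) for Crp and chr4:63362199-63362448 (plus) for Orm2. Capitals mark matches, on either strand, to 4 short motifs of factors known from acute phase promoters: GTTAAT for HNF1, TTNNGNAA for C/EBP, TTCNNNGAA for STAT and, for NF-κB, GGG, any 5 bases and CC.
Saa1: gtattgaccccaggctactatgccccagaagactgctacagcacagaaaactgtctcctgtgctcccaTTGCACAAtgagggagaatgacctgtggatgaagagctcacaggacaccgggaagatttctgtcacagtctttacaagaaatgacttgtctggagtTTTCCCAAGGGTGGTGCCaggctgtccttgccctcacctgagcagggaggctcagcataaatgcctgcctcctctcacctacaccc
Saa2: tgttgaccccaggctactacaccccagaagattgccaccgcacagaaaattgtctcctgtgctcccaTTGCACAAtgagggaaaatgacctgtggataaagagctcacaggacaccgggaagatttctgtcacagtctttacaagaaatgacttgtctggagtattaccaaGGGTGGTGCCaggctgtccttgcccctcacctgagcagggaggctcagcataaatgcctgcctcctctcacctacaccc
Saa3: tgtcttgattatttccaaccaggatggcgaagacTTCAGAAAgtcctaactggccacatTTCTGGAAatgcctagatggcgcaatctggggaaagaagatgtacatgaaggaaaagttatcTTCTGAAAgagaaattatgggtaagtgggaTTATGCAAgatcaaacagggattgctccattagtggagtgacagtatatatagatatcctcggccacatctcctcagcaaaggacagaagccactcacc
Saa4: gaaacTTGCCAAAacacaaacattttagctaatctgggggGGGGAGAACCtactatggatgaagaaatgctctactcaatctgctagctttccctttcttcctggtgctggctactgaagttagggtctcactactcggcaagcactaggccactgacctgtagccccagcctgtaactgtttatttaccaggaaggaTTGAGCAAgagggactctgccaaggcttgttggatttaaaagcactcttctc
Crp: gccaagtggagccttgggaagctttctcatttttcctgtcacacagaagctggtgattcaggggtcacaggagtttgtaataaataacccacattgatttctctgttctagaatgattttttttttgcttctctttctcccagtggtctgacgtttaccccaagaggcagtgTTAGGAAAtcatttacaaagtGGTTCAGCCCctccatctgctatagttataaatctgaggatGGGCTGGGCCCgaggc
Orm2: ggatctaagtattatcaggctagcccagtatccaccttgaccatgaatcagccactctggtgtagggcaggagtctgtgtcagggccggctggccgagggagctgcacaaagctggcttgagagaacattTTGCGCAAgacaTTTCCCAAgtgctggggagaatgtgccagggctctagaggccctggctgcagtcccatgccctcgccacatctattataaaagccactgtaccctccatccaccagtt

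Saa1 and Saa2 differed by 13 single-base changes over the 250 bases, and every other pair of Saa genes by 130 to 145. Saa1 held 2 C/EBP matches, the second directly beside its NF-κB match, where Saa2 had the same NF-κB letters and 1 C/EBP match. Saa3 held 4 C/EBP matches and none to NF-κB, Saa4 held 2 and 1, Crp held 1 and 3, with overlap among the 3, and Orm2 held 2 C/EBP matches and none of the others. A promoter was on hand for 26 of the 35 genes, and an HNF1 match lay in 8 of the 26 (30.8%) against 6.52% of 27025 promoters in all. A C/EBP match lay in 16 of the 26 (61.5%) against 36.9%, a STAT match in 3 (11.5%) against 7.18% and an NF-κB match in 8 (30.8%) against 45.4%. The HNF1 matches were in 5 of 18 hepatocyte-type, 2 of 5 fat-local and 1 of 3 remaining promoters. Such matches are letters in a window and not binding sites.

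The hepatocyte-type genes covered the lectins and MASPs of the lectin pathway (Mbl1, Mbl2, Masp1 and Masp2), C2, C4a and factor B. They also covered the terminal components C5, C6, C8a, C8b, C8g and C9 and the regulators Cfi, C4bp and Vtn. The rest were the pentraxins Crp and Apcs, the Saa genes, Hpx and Lbp. Of these 24 genes, 14 were detected on all room temperature BAT arrays and 6 on none of them, and in the cold 6 were detected on all BAT arrays and 12 on none. As a share of its mean signal on the 3 arrays labelled WAT of the same temperature, the median gene had 1.35, 1.00 and 1.37% on the room temperature BAT arrays and 0.42, 0.22 and 0.57% on the cold ones. The 12 hepatocyte markers had medians of 2.16, 1.58 and 2.66% and of 0.14, 0.37 and 0.60% on the same arrays. Both sets were low in BAT and lower in the cold, without overlap of the medians. For the 24 genes the class rule fixed the low level in BAT in advance, so that level is a description only.

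In BAT, no gene of the 35 rose in the cold and 3 fell: Crp, Vtn and Cp. Calls are from the limma fit of all 16 arrays at an adjusted P under 0.05, which called 0.3% of all 39730 probes higher and 0.34% lower. The log2 change was negative for 32 of the 35 genes, against 48.1% of probes, with a median of -0.36 against 0.005. Of the 32, 6 were detected on no BAT array (C1ra, C4bp, C8a, Masp1, Apcs and Saa1), so that their sign is that of background. Of the 14 genes detected on all 6 BAT arrays the change was negative for 12, against 46.8% of the probes so detected. In 18 of the 35 genes all cold arrays lay below all room temperature arrays and in none above, against 8.04% of probes lower and 7.82% higher. Without adjustment, at P under 0.05, 12 genes were lower and 0 higher, against 4.3 and 4.38% of probes.

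C-reactive protein (Crp), a pentraxin that is only a minor acute phase protein in mice, had signals of 50.6, 44.6 and 95.9 on room temperature BAT arrays and 9.7, 1.5 and 5.0 on cold ones. It was detected on none of the cold arrays and was at least 2.59-fold lower there (log2 change -1.66 ± 0.31, adjusted P = 0.0385). Vitronectin (Vtn), which keeps the terminal complex from entering membranes, had signals of 247, 130 and 209 and then 57.7, 49.8 and 65.1, a 2.81-fold fall (-1.49 ± 0.28, adjusted P = 0.0398). Cp, given above, fell 1.79-fold (-0.84 ± 0.15, adjusted P = 0.0319). For each of the 3 genes the groups did not overlap. Hemopexin (Hpx), which binds heme, and C9, which forms the wall of the pore, had larger changes than Vtn but missed the threshold. Hpx signals were 293, 178 and 371 and then 31.8, 33.5 and 56.7 (-2.37 ± 0.48, adjusted P = 0.0514). C9 signals were 62.7, 42.8 and 36.0 and then -6.3, -3.4 and 2.4 (-1.56 ± 0.33, adjusted P = 0.0665).

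The calls in BAT lay close to the threshold. Leaving out any of room temperature BAT arrays 1 and 3, the 3 cold BAT arrays or the 3 room temperature arrays labelled WAT left 0 calls, leaving out cold array 2 labelled WAT left 2, and leaving out room temperature BAT array 2 or a cold array labelled liver gave 5, or a room temperature array labelled liver 6. A normexp offset of 50 also left 0 calls. The hepatocyte markers fell with Crp and Vtn, 4 of 12 passing the test (Ttr, Apoa1, Apoa2 and Ahsg), and their part in these falls was not tested.

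Under the WAT label, 0 genes rose and 0 fell by the limma fit, which called 0.0403% of probes higher and 0.0302% lower. Without adjustment, at P under 0.05, 4 were lower and 1 was higher, against 3.11 and 3.09% of probes, and the median log2 change was -0.19. Cold arrays lay below room temperature arrays in 4 genes (C1s, C6, C8b and Masp1) and above in 1 (Lcn2), against 4.96 and 4.95% of probes. Hpx, for example, had signals of 16937.5, 17096 and 14912 and then 16934, 16172 and 11069 (-0.17 ± 0.48, adjusted P = 0.997), and C6, an early part of the pore, 886.5, 469.5 and 628.5 and then 310, 451.5 and 200.4 (-1.03 ± 0.47, adjusted P = 0.797). The genes other than these 5 overlapped between temperatures on these arrays.

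Under the liver label, 0 genes rose and 15 fell, all of them hepatocyte-type, against 0.793% of probes higher and 1.8% lower. The median log2 change of the 35 genes was -1.69, against 0.01 over all probes. Signals did not overlap in 22 genes with cold lower and in 3 with cold higher (C1qc, C1ra and Cp), against 18.7 and 21.7% of probes. The 2 room temperature arrays labelled liver carried hepatocyte and adipocyte markers together and the 2 cold ones mostly adipocyte markers, with 10 of 12 hepatocyte markers called lower. The part of hepatocyte RNA in the falls described next was not tested. A fit of the 4 arrays labelled liver alone called 0 genes, with 17 lower without adjustment at P under 0.05, against 3.9% of probes.

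The 4 lectin and protease genes that start the lectin pathway fell. Mannose-binding lectin Mbl1 had signals of 509 and 320 in room temperature mice, against 11.4 and -9.9 in cold ones, and Mbl2 had 1189 and 463 and then 14.9 and 7.0. Their proteases ran alike, Masp1 with 499 and 313 and then 7.7 and -1.0, and Masp2 with 663 and 271 and then 10.6 and 0.7. Each was detected on 1 of the 2 cold arrays. The other Masp1 probe was detected on no array of any label, with signals of at most 10.7, so the Masp1 fall rests on 1 probe. The log2 changes were -4.18 ± 0.26 for Mbl1 (adjusted P = 1.28e-06), -4.78 ± 0.37 for Mbl2 (5.33e-06), -4.15 ± 0.17 for Masp1 (8.5e-08) and -4.18 ± 0.31 for Masp2 (4.34e-06). C2 and C4a, which the lectin and classical pathways share, and factor B (Cfb) of the alternative pathway did not pass. C2 had 2030 and 1487 and then 956 and 939 (-0.85 ± 0.33, adjusted P = 0.302). C4a had 4344 and 6314 and then 3204 and 4292 (-0.50 ± 0.33, adjusted P = 0.708). Cfb had 628 and 413 and then 283 and 375 (-0.63 ± 0.39, adjusted P = 0.664). C4a and C4b are near-identical, so the C4a probes may read both. The 3 C4a probes ran alike across the arrays.

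Of the 6 terminal components, 4 fell. The chains of C8 had signals of 413 and 184 and then 13.6 and 5.9 for C8a, 1732 and 687 and then 12.6 and 3.5 for C8b, and 5248.5 and 2839 and then 62.2 and 11.8 for C8g. C9 had 3786 and 1749 and then 34.2 and -5.7. Every cold value was far below every room temperature value, with log2 changes of -3.45 ± 0.30 (adjusted P = 1.84e-05), -5.43 ± 0.34 (1.3e-06), -6.36 ± 0.48 (4.75e-06) and -6.38 ± 0.41 (1.39e-06) in that order. C5 had 535.5 and 54.8 and then 6.9 and 2.8, and its change of -3.05 ± 0.99 did not pass (adjusted P = 0.179). C6 had 459 and 298 and then 346.5 and 57.0, which overlap (-1.25 ± 0.58, adjusted P = 0.43). The other probes of C6 and C9 were detected on no array of any label and were too dim for testing.

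Of the regulators, factor I (Cfi), the protease that inactivates C3b and C4b, had 3279.5 and 1537 and then 29.2 and 12.7 (-5.98 ± 0.35, adjusted P = 7.76e-07). Vtn had 8262 and 4636 and then 173.5 and 108 (-5.37 ± 0.35, adjusted P = 1.42e-06). C4-binding protein (C4bp), a cofactor of factor I, had 149 and 67.3 and then -3.2 and -3.1. It was detected on neither cold array and was at least 4.67-fold lower (-2.50 ± 0.46, adjusted P = 0.00931), and this call was lost without room temperature array 1 labelled liver (adjusted P = 0.137). Properdin, given above, was not called (0.48 ± 0.31, adjusted P = 0.696).

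Among the acute phase proteins, Crp had 2237 and 1579 and then 41.2 and 4.5 (-5.72 ± 0.38, adjusted P = 1.85e-06), while Apcs, the other pentraxin, had 68.1 and 26.4 and then -10.7 and -6.4 (-1.60 ± 0.41, adjusted P = 0.0652). Hpx had the steepest fall of the 35, from 13674 and 6795 to 131 and 13.0, a 149-fold difference (-7.22 ± 0.59, adjusted P = 9.49e-06). Saa1 (-4.33 ± 0.62, adjusted P = 0.00147) and Saa4 (-4.18 ± 0.23, adjusted P = 7.02e-07) fell, with the signals given above, and Saa2 (-0.65 ± 0.35, adjusted P = 0.544) and Saa3 did not pass. Lipopolysaccharide-binding protein (Lbp) had 206 and 405 and then 371 and 255, with overlap (0.08 ± 0.30, adjusted P = 0.996). None of the 8 genes local in fat was called, the log2 changes of their brightest probes being -0.39 to 0.48 with a median of 0.18. The dimmer Hp probe disagreed with the brighter one, with 7634 and 4982 and then 3990 and 1604, without overlap. It was not called either (-1.31 ± 0.55, adjusted P = 0.361).

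**Figure D4:**
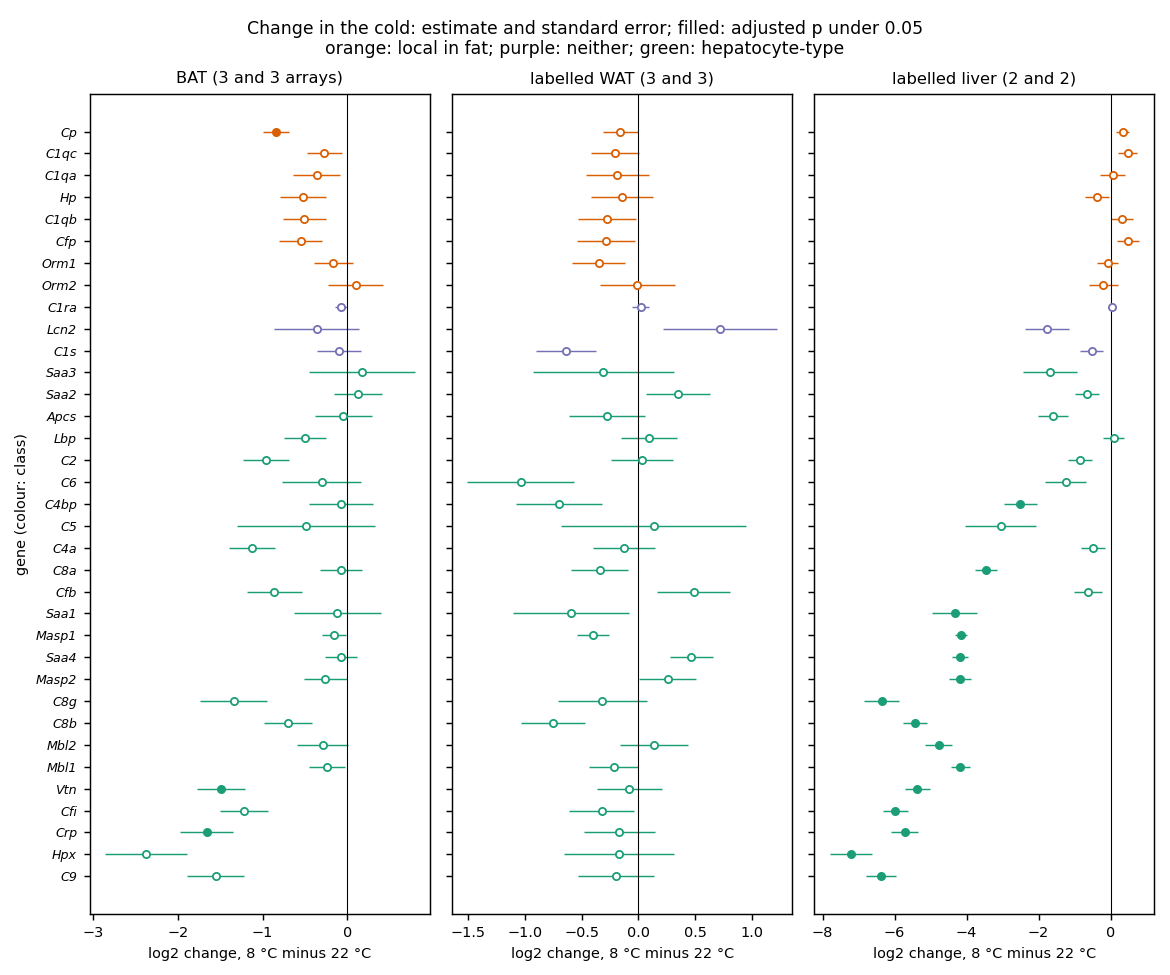
Log2 change from room temperature to cold (horizontal axes, with a separate scale in each panel) of the 35 genes under each label, with its standard error, filled where the adjusted P was under 0.05. Under the liver label 15 green hepatocyte-type genes lie between -2.50 and -7.22, while the orange genes local in fat lie near 0; in BAT only Crp, Vtn and Cp are filled and under the WAT label none is.

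The difference between these responses was tested in the same fit. The change of 14 genes was more negative under the liver label than in BAT, against 1.3% of probes called in that direction, and these were the 15 genes that fell under the liver label without C4bp. Of the 14, C8g, Hpx and Vtn were detected on all 6 BAT arrays, Mbl1 and Masp2 on 1 and C8a, Masp1 and Saa1 on none. For these last 5 no level was there in BAT to fall from, and the difference restates their fall under the liver label. C9, Crp and Cfi were detected on no cold BAT array, so how far they fell in BAT was not measured. Saa4, C8b and Mbl2 were dim in BAT, with room temperature mean signals of 12.9, 26.1 and 22.9, which left little room to fall. Cp was the 1 gene called the other way (log2 difference -1.18 ± 0.24, adjusted P = 0.028), against 0.521% of probes. The same 14 genes differed between the WAT and liver labels, against 1.22% of probes, and 0 the other way, against 0.244%. Between BAT and the WAT label limma called 0 genes, against 0.0151% of probes higher and 0.00503% lower, and without adjustment 9 were lower and 0 higher at P under 0.05, against 3.46 and 3.6%. These contrasts share arrays and are not separate evidence.

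Levels at 1 temperature were also compared between the arrays labelled liver and the other labels. At room temperature 29 of the 35 genes were higher on these arrays than in BAT, against 4.38% of probes, and 0 lower, against 5.57%. In the cold 13 were higher, against 7.82% of probes, and 0 lower, against 6.61%: C1qa, C1qb, C1qc, Cfp, Hp, Orm1, Cp, C2, C4a, C6, Cfb, Lbp and Vtn. Against arrays labelled WAT at room temperature, 12 genes were lower under the liver label and 2 higher (Cp and Lcn2), where 4.57 and 5.03% of probes were called. The 12 became 3 without room temperature array 2 labelled liver and 7 without room temperature array 3 labelled WAT. In the cold, 21 genes were lower under the liver label than under the WAT label, against 7.86% of probes, and 4 were higher, against 11.2% (Cp, Cfp, C1qb and C1qc; 2 without cold array 1 labelled liver). All 4 comparisons share arrays with the class rule. The rule chose 24 of the 35 genes for being high under the WAT label and low in BAT. The directions were thus in part fixed in advance, so these counts are a description and the shares of probes are no measure for them.

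A second reading of the 24 hepatocyte-type genes, chosen after their values were seen, split them on the cold arrays labelled liver. Lbp, Saa3, C4a, C2, C6 and Cfb lay within 2 log2 units of the cold arrays labelled WAT, with differences of 0.11, 0.49, 0.81, 0.94, 0.98 and 1.94 units, and all 6 were detected on both arrays. The other 18 differed by 2.32 to 7.75 units. Of these 18, Saa2, Apcs, C4bp and C5 were detected on neither cold array and were at least 4.72-, 5.31-, 11.3- and 22.7-fold lower, and the other 14 were detected on 1 or both arrays and were 20.1-fold (C8a) to 215-fold (Hpx) lower. Of the 14, 10 were detected on 1 array only. Their folds rest in part on a value at background, so the size is uncertain. On these 2 arrays the summed signals of adipocyte and macrophage markers were high and those of hepatocyte markers low. The part of these markers in the split was not tested. Lbp signals of 371 and 255 compare with 293, 401.5 and 319 on the cold arrays labelled WAT and 2.8, 17.3 and 17.4 on cold BAT arrays. C4a signals of 3204 and 4292 compare with 6315 to 6715 and 180 to 224, Cfb signals of 283 and 375 with 873 to 1714 and 7.8 to 17.1, and C2 signals of 956 and 939 with 1528 to 2227 and 82.0 to 97.4. The log2 difference of the cold arrays labelled liver from the cold BAT arrays was 4.09 for C4a, 3.61 for Cfb, 3.47 for Lbp, 3.18 for C2, 2.54 for C6 and 1.27 for Saa3. These 6 genes were chosen within 2 log2 units of the WAT label and, by the class rule, above BAT, so their differences are a description. Cfb and C2 were still called lower than under the WAT label in the cold (limma adjusted P = 0.00171 and 0.0491). On cold array 2 labelled liver, Saa3 had 20.1 and C6 had 57.0. The cold arrays labelled WAT had 83.6 to 166 for Saa3 and 200.4 to 451.5 for C6.

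**Figure D5:**
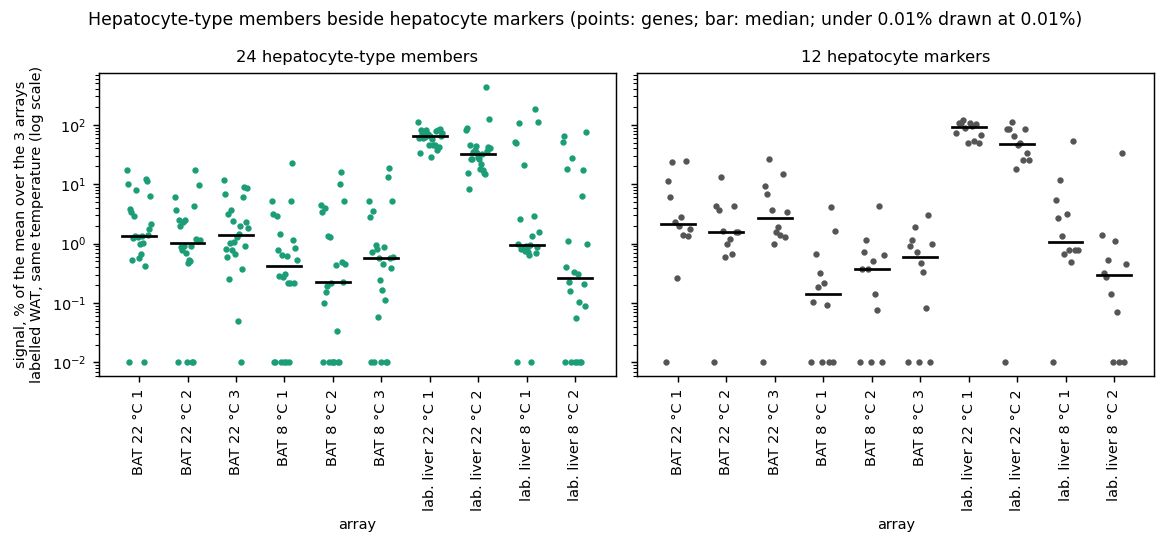
Signal of each of the 24 hepatocyte-type genes (left) and of the 12 hepatocyte markers (right) on each BAT and labelled liver array, as a percentage of its mean over the 3 arrays labelled WAT of the same temperature (log axis, 1 point per gene, bar at the median, values under 0.01% drawn at 0.01%). The medians of both sets are 64.9 and 32.7% against 90.6 and 47.1% on room temperature arrays labelled liver and 0.93 and 0.27% against 1.06 and 0.30% on cold ones, with a few members far above the bar.

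Other genes of the same systems were counted for comparison. Over all probes, limma called 0.3% higher and 0.34% lower in BAT, and 0.793 and 1.8% under the liver label. Under the WAT label it called 0.0403 and 0.0302%. Without adjustment, at P under 0.05, the shares were 4.38 and 4.3% in BAT and 3.09 and 3.11% under the WAT label. Of 20 tested genes for further complement components, regulators and receptors, limma called 0 in BAT (without adjustment, 2 were lower at P under 0.05) and 2 as lower under the liver label, the C1r-like protease C1rl (-2.36, adjusted P = 1.02e-05) and the lectin Colec11 (-1.41, adjusted P = 0.000719). The C1 inhibitor gene Serping1, which restrains C1r, C1s and the MASPs, had 415 to 935 on BAT arrays, 3159 to 5839 on arrays labelled WAT and 1525 to 3933 on arrays labelled liver. Of 18 further acute phase genes, 7 fell in BAT (Itih4, Fga, Ahsg, Ttr, Trf, Serpina1b and Apom) and 10 under the liver label. Ahsg and Ttr were also among the hepatocyte markers counted above. Fibrinogen alpha (Fga) is an example, with a log2 change of -2.84 ± 0.45 in BAT (adjusted P = 0.0173) and -7.33 ± 0.55 under the liver label (adjusted P = 4.75e-06). Of 23 cytokines and transducers of the response, limma called 0 in BAT (without adjustment, 2 were lower and 1 higher at P under 0.05) and 1 as lower under the liver label, Hnf4a (-4.30 ± 0.37, adjusted P = 1.43e-05), the hepatocyte nuclear factor. Il6 and Tnf, which drive the response, had signals of at most 9.5 and 9.9. Under the WAT label limma called 0 genes of these 3 lists. Without adjustment, at P under 0.05, the first list had 0, the second had 1 higher and the third had 2 higher and 1 lower there.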

How the data were processed

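The deposited intensities are linear signals from Illumina arrays, which the authors handled in GeneSpring, and per the file values background had been subtracted (38.0% lay below 0) and the quartiles were alike on all arrays. The deposited detection column, headed as a p-value, rose with the signal and was read as a score. The authors' log2 value table held the log2 signal, floored at 5, relative to each probe's median. Its direction and scale were checked against the signals. Here signals were corrected and quantile-normalized with neqc of limma 3.58.1 (R 4.3.3, normexp offset 16), 39730 of 46643 probes, those reaching a score of 0.6 on 2 or more arrays, were kept, and 6 group means were fitted over all 16 arrays with lmFit and eBayes. P-values were adjusted by Benjamini-Hochberg over all probes tested and called under 0.05. The fit was tested on simulated data. Precision is limited by 2 or 3 arrays a group. Where a probe went undetected on a whole group, a fold is given as a lower bound, the bright group's mean against the dim group's mean of the higher of the lowest detected signal and the probe's own. Groups came from the labels, which number the arrays but do not pair them. The genes and lists were chosen with earlier results of these data known. Every listed gene was accounted for, with values per array for those called and those local in fat, and of the other lists the genes called were named by examples. Ahsg, Ttr, Alb and Hnf4a stand in 2 lists each. Adjusted values are from limma throughout.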

Additional observations from a re-analysis of the deposited data

Results flagged for a closer look

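Results below differed between tissue labels in the test of the cold response itself (limma, all 16 arrays). The log2 change of BAT minus that of the liver label was 3.38 for C8a, 4.73 for C8b, 5.02 for C8g, 4.82 for C9, 4.76 for Cfi, 3.99 for Masp1, 3.92 for Masp2, 3.94 for Mbl1, 4.48 for Mbl2, 4.06 for Crp, 4.21 for Saa1, 4.11 for Saa4, 4.84 for Hpx and 3.87 for Vtn, with adjusted P from 3.35e-06 to 0.0171, and it was -1.18 for Cp (adjusted P = 0.028). C8a, Masp1 and Saa1 were detected on 0 of the 6 BAT arrays and Mbl1 and Masp2 on 1, so for these genes the difference restates the fall under the liver label. C9, Crp and Cfi were detected on no cold BAT array, so how far they fell in BAT was not measured. Saa4, C8b and Mbl2 were dim in BAT, which left little room to fall.

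The log2 change of the WAT label minus that of the liver label was 3.11 for C8a, 4.68 for C8b, 6.04 for C8g, 6.18 for C9, 5.65 for Cfi, 3.75 for Masp1, 4.43 for Masp2, 3.96 for Mbl1, 4.91 for Mbl2, 5.56 for Crp, 3.74 for Saa1, 4.65 for Saa4, 7.05 for Hpx and 5.29 for Vtn, with adjusted P from 3.45e-06 to 0.04. Both sets share the 4 arrays labelled liver. The summed hepatocyte markers on these arrays were 81764 to 109097 at room temperature and 6080 to 13302 in the cold, and their part in the differences was not tested. No group had more than 3 arrays, so no array was tested for standing apart from its group.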

How the results depend on the processing

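No direction was reversed. Of the alternatives for counts, 581 of 630 stayed within 1.5 times and 49 moved. The count of genes lower in cold BAT (3) was 0 with an offset of 50 or the methods' t-test after Benjamini-Hochberg, 5 with robust variances that followed an intensity trend, and 6 with a score of at least 0.95 or the methods' t-test at their thresholds. Chosen after seeing the data, it was 6 without the 4 arrays labelled liver and 5 without the 2 arrays that stood apart. The 15 genes lower under the liver label became 0 in a fit of each label alone, which has fewer arrays (17 lower without adjustment, at P under 0.05), and 0 with the methods' t-test after Benjamini-Hochberg. Cp, the 1 gene called the other way between BAT and the liver label, was lost with the trend. Between the WAT and liver labels at room temperature, without background correction and likewise in the authors' table, 4 genes were higher and 1 lower. In the cold, 2 were lower with a 2-fold minimum and 2 without the arrays that stood apart, where 1 was also lower under the liver label than in BAT. The class of neither held 5 genes with an offset of 50 or a threshold of 3 log2 units, and at 1 unit 5 genes were local in fat and 1 in neither. Where these moved, the cause was not tested.

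Leaving out 1 array at a time gave 0 to 6 genes lower in BAT, 0 to 0 under the WAT label and 14 to 19 under the liver label, 13 to 15 and 0 to 1 for BAT against the liver label (Cp was lost without cold BAT array 1 or 3, room temperature array 1 labelled liver or cold array 2 labelled liver) and 13 to 14 for the WAT against the liver label. For levels of the WAT against the liver label it gave 3 to 16 higher and 1 to 2 lower at room temperature (1 without room temperature array 1, 2 or 3 labelled WAT or room temperature array 1 labelled liver), and 19 to 23 and 2 to 4 in the cold. For the liver label against BAT it gave 24 to 31 higher at room temperature, and 10 to 17 higher and 0 to 1 lower in the cold (1 without cold array 1 labelled liver). It gave 7 to 10 genes local in fat, 22 to 25 hepatocyte-type and 2 to 4 in neither. Over the alternatives Crp, Cp and Vtn in BAT lost their calls in 12, 13 and 12 of 29, with adjusted P of 0.00719 to 0.14, 0.0255 to 1 and 0.00719 to 0.157.

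The numbers of the arrays were not taken to pair them: deviations of same-numbered arrays correlated at -0.07 to 0.10 between temperatures, which are different mice, and at -0.13 to 0.17 between labels within a temperature, with 7 of 14 pairs above 0.1. With the number as a fixed replicate block within each label, 0 genes were lower for BAT against the liver label, 2 were higher for the WAT against the liver label at room temperature and 1 was lower in the cold, and with the number within a temperature as a random block no count moved. The number of arrays and signals near background limit what is measured of dim genes, C1ra among them.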
